A study of Mus musculus with 13 samples.

Results

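The genes described here encode the subunits of mitochondrial oxidative phosphorylation and the complex I assembly factors that share their naming. They were chosen by gene symbol from an expression array: symbols that begin with Ndufa, Ndufb, Ndufc, Ndufs, Ndufv, Uqcr, Cox4 to Cox8 or Atp5, and the genes Sdha, Sdhb, Sdhc and Sdhd. Each gene was read from the probe set with the highest mean signal over all arrays, and probe sets annotated to several genes were left out. This gave 90 genes of 18193 named genes on the array. By symbol, 36 belonged to complex I, 4 to complex II, 8 to complex III, 17 to complex IV and 17 to complex V, and 8 were complex I assembly factors (the Ndufaf genes).

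The cells were adult prostatic progenitor/stem cells, cultured from 10 wk old mice labelled wild-type B1/6; 127/SVEV and used at passage 22. They received 1,25-dihydroxyvitamin D3 (1,25D), the active steroid hormone made from vitamin D, at 100 nM, or its solvent ethanol at 0.1% as the vehicle. The 4 groups were 1,25D for 48 h (4 arrays), vehicle for 48 h (3 arrays), 1,25D for 6 h (3 arrays) and vehicle for 6 h (3 arrays), and in the 48 h cultures the medium was renewed after 24 h. Nothing in the labels says that the arrays came from separate animals, so the p-values measure the spread between these cultures, which may be technical.

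Oxidative phosphorylation takes place in the inner mitochondrial membrane. Complex I oxidises NADH and complex II oxidises succinate, and both pass electrons through ubiquinone to complex III, which hands them through cytochrome c to complex IV, where oxygen is reduced. Complexes I, III and IV pump protons, and complex V, the ATP synthase, uses the returning protons to make ATP. Most subunits are encoded in the nucleus and imported, while a few catalytic ones are encoded by mitochondrial DNA. Prostate epithelium is known for an unusual use of this pathway, because secretory cells export citrate that other cells would oxidise.

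The labelled cell type was checked against its markers. The basal keratin genes Krt14 and Krt5 lay at percentiles 99.9 and 99.2 of all probe sets, the luminal keratin genes Krt8 and Krt18 both at 99.7, and Pbsn, a secretory product of mature luminal cells, at 5.9. Of 6 leukocyte markers, 4 lay below percentile 50, Ptprc at 15.9 among them, while Cd68 lay at 63.9 and Cd3e at 67.1. All 5 endothelial markers lay below percentile 50. Of 11 stromal markers, 7 lay below percentile 50, and Vim lay at 96.3. The signal summed over 6 leukocyte markers was 8.71 to 9.09 (log2) in 1,25D at 48 h, 8.27 to 8.33 in vehicle at 48 h, 7.89 to 8.07 in 1,25D at 6 h and 7.93 to 8.34 in vehicle at 6 h. Over 11 stromal markers it was 10.73 to 10.98, 11.14 to 11.38, 11.37 to 11.61 and 11.32 to 11.86 in the same order of groups. One gene of each list moved most between the groups, again in that order: Cd68 averaged 7.92, 6.69, 5.55 and 5.67, and Vim 10.46, 11.01, 11.28 and 11.39. Cd3e averaged 6.88, 6.87, 6.81 and 6.97, above Cd68 in every group except 1,25D at 48 h. The other 5 leukocyte and 10 stromal markers were not called with time in either treatment. Epithelial markers also moved. Of 9 basal markers, 5 were higher and 0 lower with time in 1,25D and 3 higher and 0 lower in vehicle, and of 6 luminal markers 1 was higher and 1 lower in 1,25D and 3 higher and 0 lower in vehicle. Of all named genes, 10.9% were higher and 12.5% lower with time in 1,25D, and 9.84% and 8.75% in vehicle. The luminal keratin gene Krt19 averaged, in the same order of groups, 11.48, 10.90, 9.67 and 8.88, Tmprss2 8.96, 8.53, 8.52 and 7.15, and the basal genes Krt15 7.92, 7.84, 6.36 and 6.15 and Trp63 9.43, 9.63, 8.34 and 8.49. The summed basal signal was 14.89 to 15.02, 14.79 to 14.96, 14.72 to 14.77 and 14.74 to 14.96 in the same order of groups. The summed luminal signal was 14.89 to 15.01, 15.22 to 15.25, 14.94 to 14.97 and 14.94 to 15.04. The part of these markers in the changes with time below was not tested. The arrays of vehicle 6 h replicate 1 and 1,25D 48 h replicate 4 stood apart, with interquartile ranges of 3.03 and 2.95, against 3.27 to 3.46 in the other 11 arrays.

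The oxidative phosphorylation genes were among the brightest of the array. Their median mean signal was 11.6 on the deposited log2 scale, their median percentile was 97.8, and 71 of the 90 had a mean of at least 10. Of the 19 dimmer genes, 7 were complex IV isoforms known from other tissues and 6 were assembly factors. Cox4i2, Cox6b2, Cox7a1 and Cox7b2 lay below percentile 50, together with the single probe set of Ndufb4. Signals of different probe sets depend on their sequence, so they give no order of abundance between genes. In these bulk cultures, fewer cells of a type and less RNA per cell cannot be told apart.

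With time in culture, many more of the genes rose than fell, with and without the hormone. In 1,25D, 24 of 90 were higher at 48 h than at 6 h and 6 were lower (30 in all); of all named genes, 10.9% were called higher and 12.5% lower (23.4% in all). In vehicle, 24 were higher and 3 lower (27 in all), against 9.84% and 8.75% of all named genes (18.6% in all). A gene was called where limma's moderated test gave an adjusted p under 0.05 over all 45037 probe sets. The median change of the 90 genes was 0.14 on the log2 scale in 1,25D and 0.13 in vehicle, beside 0.01 and -0.03 over all named genes. In 1,25D, 38 genes had every 48 h array above every 6 h array and 10 every array below, against 15.5% and 18.3% of all named genes. In vehicle these counts were 35 and 8, against 15.8% and 15.2%.

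Brightness bears on how readily a change is called, so the counts were also set beside other bright genes, a limit chosen after the data were seen. Among genes with a mean of at least 10, in 1,25D 21 of 71 oxidative phosphorylation genes were called higher and 3 lower, against 18.6% and 27.4% of all 2177 such genes. In vehicle, 21 were higher and 2 lower, against 18.6% and 19.8%. The counts changed when single cultures were left out. Fewer arrays make any call harder, and the shares of all named genes under these omissions are not given here. Without 1,25D 6 h replicate 2, 18 genes were called in 1,25D (14 higher, 4 lower), and without vehicle 48 h replicate 2, 14 were called in vehicle (11 higher, 3 lower). Hours of exposure and the renewal of the medium cannot be told apart in this design.

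**Figure D1:**
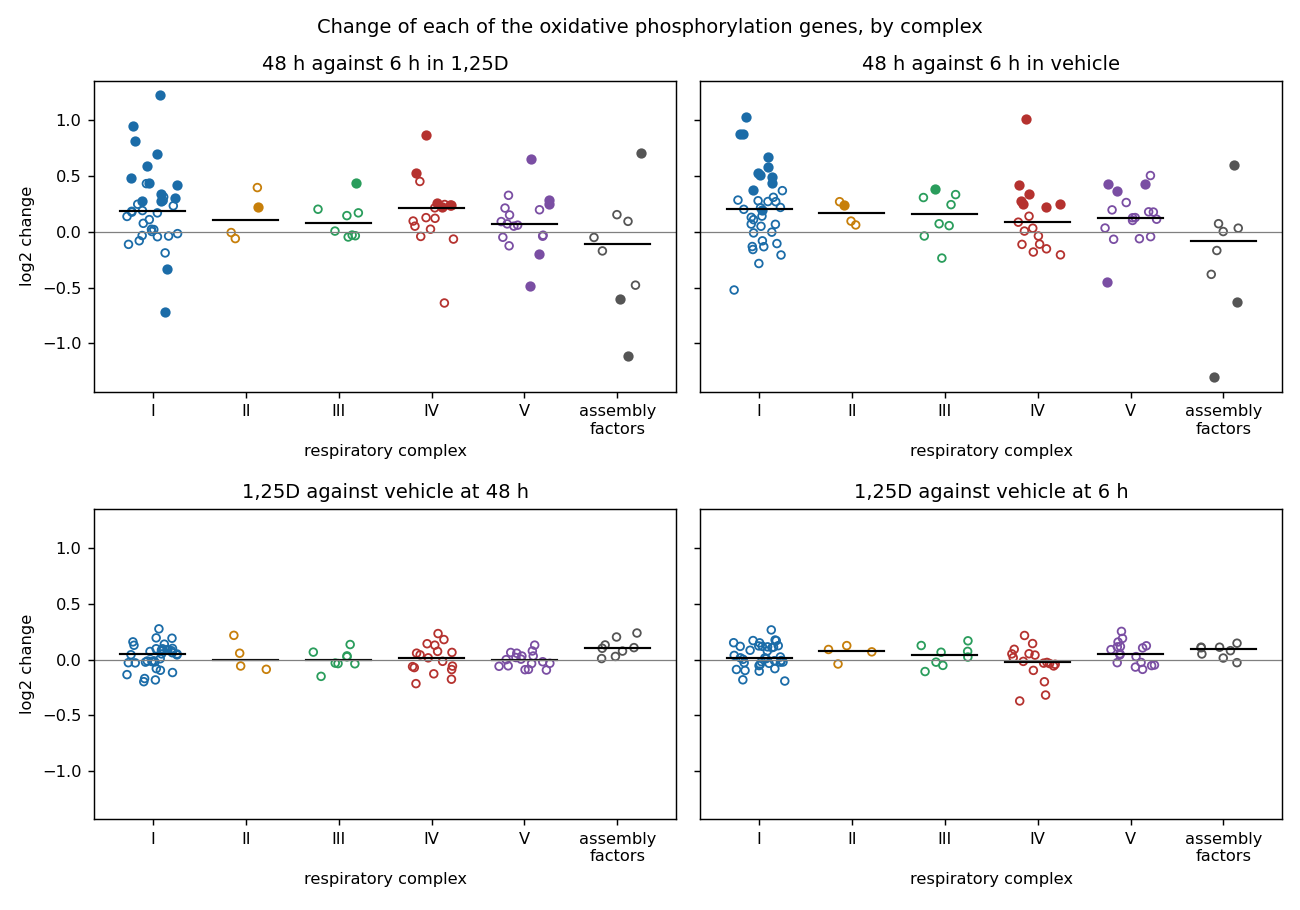
Log2 change of each of the 90 genes (points) by complex, with filled points for genes called at an adjusted p under 0.05 and black lines for medians. The 2 upper panels compare 48 h with 6 h in 1,25D (24 called higher, 6 lower) and in vehicle (24 higher, 3 lower), and the 2 lower panels compare 1,25D with vehicle at 48 h and at 6 h, where 0 were called.

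The shift was small in each array, and the arrays of the 2 times did not overlap, though their nearest values lay close together. The median deviation of the 90 genes from their own means was 0.005 to 0.11 in 1,25D and 0.01 to 0.13 in vehicle at 48 h, against -0.14 to -0.001 in 1,25D and -0.15 to -0.03 in vehicle at 6 h (log2). Over all named genes the same median lay between -0.05 and 0.02 in each of the 13 arrays. Vehicle 48 h replicate 2 had the highest median of the 90 genes and vehicle 6 h replicate 3 the lowest.

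**Figure D2:**
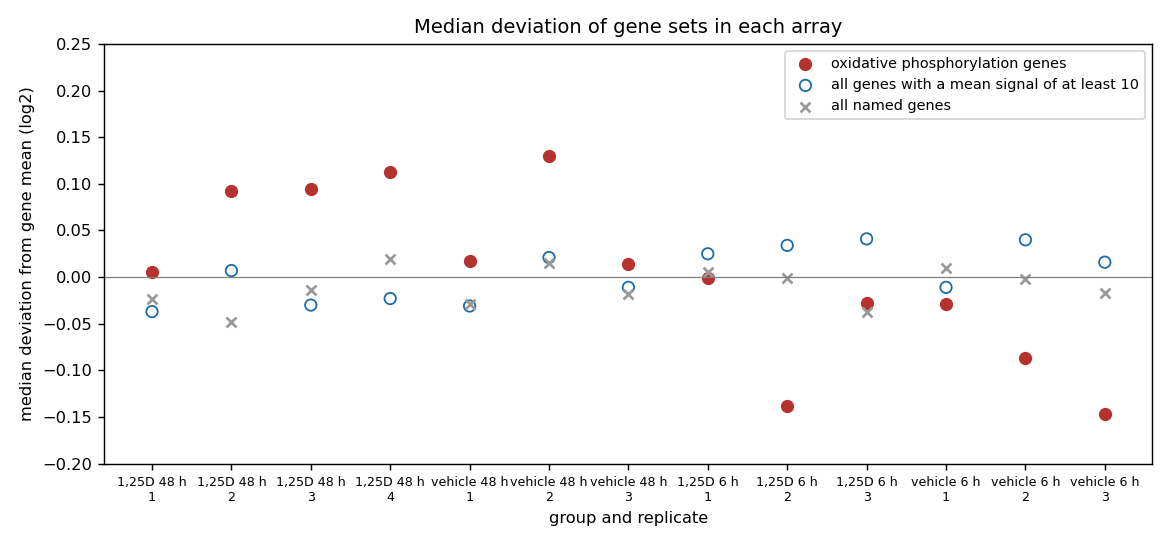
Median deviation (log2) from each gene's mean over 13 arrays, by array, for the 90 oxidative phosphorylation genes (filled), all genes with a mean signal of at least 10 (open) and all named genes (crosses). The filled points lie above 0 in the 7 arrays of 48 h cultures and below 0 in the 6 arrays of 6 h cultures.

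Complex I held the largest rise of the 90 genes in both treatments, that of Ndufv3, one of its accessory subunits, which surround the catalytic core and are needed for its assembly and stability. Of 30 accessory genes, 10 were called higher and 1 lower with time in 1,25D, and 11 higher and 0 lower in vehicle. These are 33.3% and 3.33% in 1,25D and 36.7% and 0% in vehicle. Of all named genes, 10.9% were higher and 12.5% lower in 1,25D, and 9.84% and 8.75% in vehicle. Among all genes with a mean of at least 10, 18.6% and 27.4% were in 1,25D, and 18.6% and 19.8% in vehicle. Ndufv3 lies at the tip of the NADH-oxidising arm. Its signal at 48 h was 12.25, 12.19, 12.29 and 12.17 in the 1,25D cultures and 12.03, 12.11 and 12.06 in the vehicle cultures. At 6 h it was 11.03, 10.98 and 10.98 in the 1,25D cultures and 10.95, 10.97 and 11.18 in the vehicle cultures. Every 48 h array lay above every 6 h array. The rise was 1.23 ± 0.07 in 1,25D (SE, 2.34-fold, adjusted p 5.18e-08 by limma) and 1.03 ± 0.07 in vehicle (2.05-fold, adjusted p 8.02e-07).

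Ndufa6, a small subunit of the matrix arm, had the next largest rise in 1,25D; in vehicle Cox7a1 of complex IV and Ndufa4l2 lay between it and Ndufv3. At 48 h it read 11.02, 11.05, 11.14 and 11.09 in the 1,25D cultures and 10.80, 11.18 and 10.94 in the vehicle cultures. At 6 h it read 10.15, 10.01 and 10.21 in the 1,25D cultures and 10.21, 10.18 and 9.92 in the vehicle cultures. The groups of the 2 times were well separated, and the change was 0.95 ± 0.10 in 1,25D (adjusted p 2.2e-05, limma) and 0.88 ± 0.11 in vehicle (adjusted p 0.000116). Ndufa13, also known as GRIM-19 for a role in cell death induced by interferon and retinoic acid, rose by 0.70 ± 0.07 in 1,25D and 0.58 ± 0.08 in vehicle. Ndufa7 rose by 0.59 ± 0.07 and 0.53 ± 0.08, and Ndufa1, an X-linked subunit, by 0.48 ± 0.11 and 0.67 ± 0.12, each in 1,25D and then in vehicle. For these 3 genes, too, no array of the later time reached down to the earlier one. Ndufa4l2, known as a hypoxia-induced relative of Ndufa4, was dimmer, with signals of 6.65 to 7.27 and 6.83 to 7.42 at 48 h against 6.02 to 6.50 and 6.10 to 6.72 at 6 h, in each case 1,25D before vehicle. It rose by 0.82 ± 0.21 in 1,25D (adjusted p 0.0163) and 0.88 ± 0.23 in vehicle (adjusted p 0.0198), and these calls were lost without any of 3 cultures in 1,25D (6 h replicates 2 and 3, 48 h replicate 3) and any of 4 in vehicle (replicates 2 and 3 at each time). Ndufa4 itself, which carries a complex I name but is known as a subunit of complex IV, changed by 0.00 ± 0.28 in 1,25D and 0.14 ± 0.30 in vehicle.

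The catalytic core of complex I carries the flavin and the iron-sulphur clusters. Its 6 nuclear genes measured here had a median change of 0.22 in 1,25D and -0.04 in vehicle, against 0.18 and 0.25 in the 30 accessory genes. Of the core genes, Ndufv1 and Ndufs8 rose in 1,25D, by 0.30 ± 0.08 (adjusted p 0.0215) and 0.28 ± 0.08 (adjusted p 0.037), and Ndufs1 fell by 0.33 ± 0.10 (adjusted p 0.0319). In vehicle 0 of 6 were called by limma (1 at an unadjusted p under 0.05, as were 29.4% of all named genes), with changes of 0.07, 0.00 and -0.21 for these 3 genes. The contrast between treatments depended on the probe set. Other probe sets of Ndufv1 measured 0.26 and 0.16 in 1,25D, and 0.03 and 0.32 in vehicle. Those of Ndufs8 measured 0.22, 0.26, -0.015, 0.14 and 0.24 in 1,25D. In the same order they measured 0.22, 0.27, 0.04, 0.03 and 0.03 in vehicle. These other probe sets were not called. The Ndufv1 call was lost without 1,25D 6 h replicate 1 or 2 or 48 h replicate 4, and that of Ndufs8 without any of 6 cultures, falling to 0.18 without 1,25D 6 h replicate 2. The Ndufs1 call was lost without any of 5 cultures of the 1,25D groups (6 h replicates 1 and 2, 48 h replicates 1, 3 and 4). One accessory gene went down as well: Ndufb1 had signals of 7.21, 7.59, 7.24 and 7.75 in 1,25D at 48 h, against 8.05, 8.18 and 8.27 in 1,25D at 6 h. It fell by 0.72 ± 0.18 in 1,25D (adjusted p 0.0125, or 0.058 without 1,25D 6 h replicate 3) and measured -0.52 ± 0.19 in vehicle (adjusted p 0.109).

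The assembly factors did not move as a group. Ndufaf4, which is required for an early step of complex I assembly, had the largest fall of all 90 genes. At 48 h it read 10.45, 10.75, 10.55 and 10.42 in the 1,25D cultures and 10.25, 10.33 and 10.44 in the vehicle cultures. At 6 h it read 11.57, 11.55 and 11.88 in the 1,25D cultures and 11.88, 11.27 and 11.80 in the vehicle cultures. Every 48 h array was below every 6 h array. The gene fell by 1.12 ± 0.14 in 1,25D (2.17-fold lower, adjusted p 7.12e-05, limma) and fell by 1.31 ± 0.15 in vehicle (2.47-fold lower, adjusted p 5.18e-05). Ndufaf6, which acts on the biogenesis of the mitochondrially encoded subunit ND1, fell by 0.60 ± 0.15 in 1,25D (adjusted p 0.0108) and 0.63 ± 0.16 in vehicle (adjusted p 0.0169). That call was lost in 1,25D without 6 h replicate 3 and in vehicle without 6 h replicate 2 or 48 h replicate 1. Ndufaf3, a partner of Ndufaf4 in the same assembly step, went the other way. It read 9.47, 9.50, 9.64 and 9.45 in the 1,25D cultures and 9.35, 9.58 and 9.37 in the vehicle cultures at 48 h, against 8.85, 8.62 and 8.95 in the 1,25D cultures and 8.89, 9.01 and 8.61 in the vehicle cultures at 6 h. Its rise was 0.70 ± 0.12 in 1,25D (adjusted p 0.00112) and 0.60 ± 0.13 in vehicle (adjusted p 0.00762). The other 5 assembly factors of the naming pattern (Ndufaf1, Ndufaf2, Ndufaf5, Ndufaf7 and Ndufaf8) were not called in either time comparison.

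**Figure D3:**
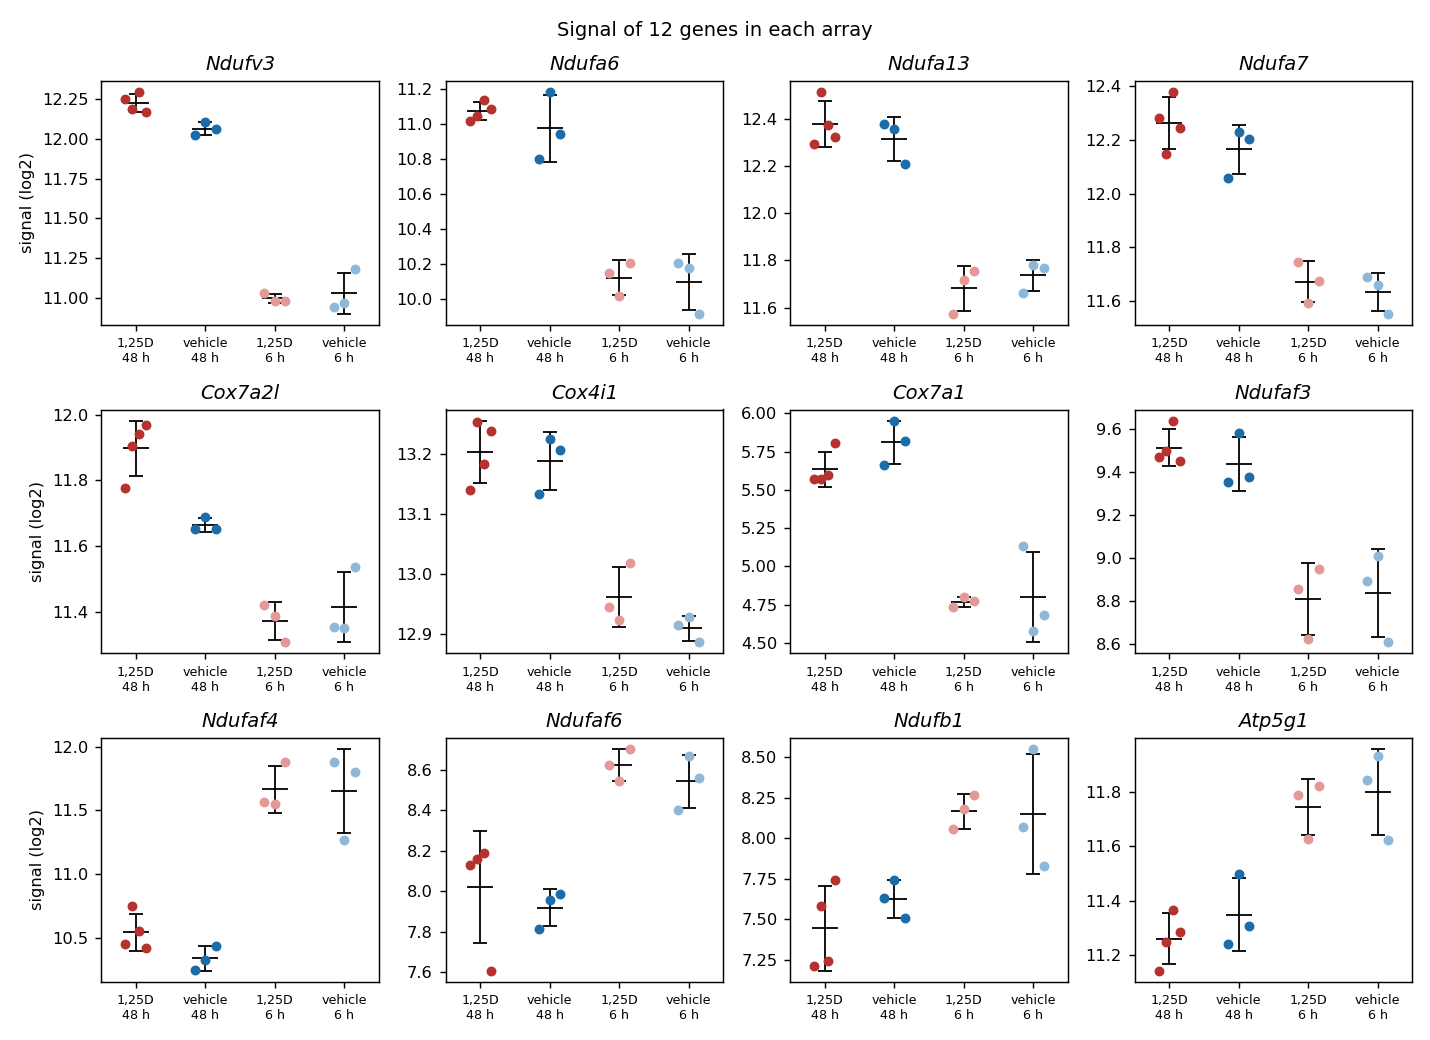
Signal (log2) of 12 genes in each array (points), with the group mean and SD (bars); groups run from 1,25D 48 h and vehicle 48 h to 1,25D 6 h and vehicle 6 h. For 11 of the genes the arrays of the 2 times do not overlap under the same treatment and the gene was called in both time comparisons; Ndufb1 also shows no overlap but was called in 1,25D alone.

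In complexes II and III, 1 gene each was called with time in each treatment, and it was higher. That is 25% of complex II and 12.5% of complex III, against 10.9% of all named genes in 1,25D and 9.84% in vehicle. The median change of complex II was 0.11 in 1,25D and 0.17 in vehicle, and that of complex III 0.08 and 0.16. Over all 90 genes it was 0.14 and 0.13. In complex III, 2 of 8 genes in 1,25D and 4 in vehicle had every 48 h array above every 6 h array. Of all named genes, 15.5% and 15.8% did. Of the 4 genes of succinate dehydrogenase, the iron-sulphur subunit Sdhb was called, 0.23 ± 0.07 higher with time in 1,25D (adjusted p 0.042) and 0.24 ± 0.08 in vehicle (adjusted p 0.0499). Both calls were close to the threshold: the first was lost in 14 and the second in 19 of 24 alternative settings, most of them with 1 culture left out, such as any 6 h replicate of the treatment concerned. Sdha, the flavoprotein, changed by -0.06 ± 0.09 in 1,25D and 0.10 ± 0.10 in vehicle, and the membrane anchors Sdhc and Sdhd by 0.40 ± 0.17 and -0.01 ± 0.13 in 1,25D and by 0.27 ± 0.18 and 0.06 ± 0.14 in vehicle. Of the 8 complex III genes, Uqcr10, a small supernumerary subunit, rose by 0.44 ± 0.09 in 1,25D (adjusted p 0.00312) and 0.38 ± 0.09 in vehicle (adjusted p 0.0157, with the call lost without vehicle 6 h replicate 3 or vehicle 48 h replicate 2, and at 0.20 as the mean of its probe sets). The core subunits Uqcrc1 and Uqcrc2 measured -0.03 ± 0.08 and 0.01 ± 0.12 in 1,25D, and -0.04 ± 0.09 and -0.24 ± 0.13 in vehicle.

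In complex IV, 6 of 17 genes were called higher with time in 1,25D and 7 in vehicle, and all but 1 of these in each treatment were ubiquitous nuclear subunits, the exception being the isoform Cox7a1 described below. Of 10 ubiquitous genes, 5 were higher with time in 1,25D and 6 in vehicle, and 0 were lower in either. Of all named genes, 10.9% were higher and 12.5% lower in 1,25D, and 9.84% and 8.75% in vehicle. Among all genes with a mean of at least 10, 18.6% and 27.4% were in 1,25D, and 18.6% and 19.8% in vehicle. Cox4i1, the largest nuclear subunit and the site of regulation by ATP, read 13.14, 13.25, 13.18 and 13.24 in the 1,25D cultures and 13.13, 13.22 and 13.21 in the vehicle cultures at 48 h. At 6 h it read 12.94, 12.92 and 13.02 in the 1,25D cultures and 12.91, 12.93 and 12.89 in the vehicle cultures. The difference of 0.24 ± 0.05 in 1,25D (adjusted p 0.00186, limma) and 0.28 ± 0.05 in vehicle (adjusted p 0.00149) was small but larger than the spread within any group. Cox7a2 rose by 0.26 ± 0.05 in 1,25D and 0.34 ± 0.06 in vehicle, and Cox6b1 by 0.24 ± 0.06 and 0.25 ± 0.06 in the same order, the vehicle call of Cox6b1 being lost without vehicle 48 h replicate 2. The other probe set of Cox6b1 (mean 12.83 against 13.12) measured 0.08 in 1,25D (adjusted p 0.44, limma). In vehicle it rose by 0.23 (adjusted p 0.0188). Cox6c rose in vehicle, by 0.42 ± 0.09 (adjusted p 0.00453), and measured 0.22 in 1,25D.

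Cox7a2l, known as SCAF1 or COX7RP, joins complexes III and IV into supercomplexes. It read 11.78, 11.91, 11.94 and 11.97 in the 1,25D cultures and 11.65, 11.69 and 11.65 in the vehicle cultures at 48 h, against 11.42, 11.39 and 11.31 in the 1,25D cultures and 11.35, 11.35 and 11.54 in the vehicle cultures at 6 h. The rise was 0.53 ± 0.07 in 1,25D (adjusted p 0.000116) and 0.25 ± 0.07 in vehicle (adjusted p 0.0426). The vehicle call was lost in 15 of 24 alternative settings, among them the omission of any vehicle 48 h array or of vehicle 6 h replicate 1 or 2. Every array of 1,25D at 48 h lay above every array of vehicle at 48 h.

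Among 7 complex IV isoforms known from other tissues, Cox7a1, the heart and skeletal muscle isoform of subunit VIIa, was the one called. Its signals were low throughout: 5.57, 5.57, 5.60 and 5.81 in the 1,25D cultures and 5.66, 5.95 and 5.82 in the vehicle cultures at 48 h, and 4.73, 4.80 and 4.77 in the 1,25D cultures and 5.13, 4.58 and 4.68 in the vehicle cultures at 6 h. The rise was 0.87 ± 0.14 in 1,25D (adjusted p 0.000526) and 1.01 ± 0.15 in vehicle (adjusted p 0.000377). Its ubiquitous counterpart Cox7a2 changed by much less, as given above. Cox4i2, the isoform known from lung and hypoxia, changed by 0.13 ± 0.12 in 1,25D and -0.04 ± 0.13 in vehicle, and Cox8b, another muscle isoform, by 0.12 ± 0.34 and -0.18 ± 0.36 in the same order. All 6 muscle markers checked (Ckm, Myh1, Myh2, Myl1, Acta1 and Tnnt3) were not called with time in either treatment, with median changes of 0.12 in 1,25D and -0.01 in vehicle.

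Of the 17 complex V genes, 3 were higher and 2 lower with time in 1,25D, and 3 higher and 1 lower in vehicle. These are 17.6% and 11.8% in 1,25D and 17.6% and 5.88% in vehicle, not far from the 10.9%, 12.5%, 9.84% and 8.75% of all named genes. Subunit c, the proton-carrying ring, is made from 3 genes, Atp5g1, Atp5g2 and Atp5g3, whose import sequences differ while the mature protein is the same. Atp5g1 read 11.14, 11.25, 11.37 and 11.29 in the 1,25D cultures and 11.24, 11.50 and 11.31 in the vehicle cultures at 48 h. At 6 h it read 11.79, 11.62 and 11.82 in the 1,25D cultures and 11.84, 11.93 and 11.62 in the vehicle cultures. It was lower at 48 h in every array, by 0.48 ± 0.09 in 1,25D (adjusted p 0.00209) and 0.45 ± 0.10 in vehicle (adjusted p 0.00745). Averaged over the gene's probe sets, the Atp5g1 fall in 1,25D was -0.23 and was not called. Atp5g3 fell by 0.20 ± 0.05 in 1,25D (adjusted p 0.013, with the call lost without 1,25D 6 h replicate 2) and measured -0.07 ± 0.05 in vehicle. Atp5g2 measured 0.28 ± 0.09 higher in 1,25D (adjusted p 0.0485, a call lost in 16 of 24 alternative settings, among them the omission of any 1,25D 6 h culture and the mean of the gene's probe sets, at 0.03) and 0.13 ± 0.10 in vehicle. Of the other parts, Atp5h and Atp5o of the peripheral stalk rose in vehicle by 0.43 ± 0.10 and 0.37 ± 0.09, and measured 0.20 and 0.21 in 1,25D, both vehicle calls being lost without vehicle 48 h replicate 2. The other probe set of each gene did not repeat this difference between treatments. That of Atp5h rose by 0.32 in both (adjusted p 0.0137 in 1,25D and 0.0241 in vehicle by limma). That of Atp5o rose by 0.36 in 1,25D (adjusted p 0.034) and measured 0.195 in vehicle (adjusted p 0.391). Atp5e of the central stalk rose by 0.65 ± 0.15 in 1,25D (adjusted p 0.00662, with a change of 0.42 without 1,25D 6 h replicate 2) and measured 0.51 ± 0.16 in vehicle (adjusted p 0.0518). The catalytic F1 subunits Atp5a1 and Atp5b were not called in any comparison.

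Promoter windows are shown for the largest rise (Ndufv3), the largest fall (Ndufaf4) and the 3 subunit c genes, whose changes differed in sign. Each is the stretch of 250 bases before the RefSeq gene start in GRCm38.p6, read 5′ to 3′ on the strand of the gene. Capitals mark matches, on either strand, to letters associated with factors known for these genes: GCGCANGCG for NRF1, CCGGAAG for ETS factors such as GABPA, AAGATGGCG for YY1, and CACGTG, the E-box of MYC and USF factors. The windows lie at chr17:31519865-31520114 (plus strand) for Ndufv3, chr4:24897833-24898082 (plus strand) for Ndufaf4, chr11:96075632-96075881 (minus strand) for Atp5g1, chr15:102671048-102671297 (minus strand) for Atp5g2 and chr2:73911327-73911576 (minus strand) for Atp5g3.
Ndufv3: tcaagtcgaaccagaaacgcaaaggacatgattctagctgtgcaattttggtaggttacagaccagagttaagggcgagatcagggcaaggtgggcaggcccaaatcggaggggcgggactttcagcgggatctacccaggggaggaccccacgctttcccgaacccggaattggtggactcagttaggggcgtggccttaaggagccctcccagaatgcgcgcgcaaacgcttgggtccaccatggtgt
Ndufaf4: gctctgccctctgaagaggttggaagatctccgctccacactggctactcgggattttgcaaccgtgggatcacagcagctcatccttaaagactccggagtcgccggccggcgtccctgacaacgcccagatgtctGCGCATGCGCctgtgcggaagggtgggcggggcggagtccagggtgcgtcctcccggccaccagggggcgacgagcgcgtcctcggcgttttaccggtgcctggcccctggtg
Atp5g1: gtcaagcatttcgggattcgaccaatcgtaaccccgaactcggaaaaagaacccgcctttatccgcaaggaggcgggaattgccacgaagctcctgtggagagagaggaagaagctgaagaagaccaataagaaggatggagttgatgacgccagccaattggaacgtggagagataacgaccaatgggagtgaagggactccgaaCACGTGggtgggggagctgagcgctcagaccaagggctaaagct
Atp5g2: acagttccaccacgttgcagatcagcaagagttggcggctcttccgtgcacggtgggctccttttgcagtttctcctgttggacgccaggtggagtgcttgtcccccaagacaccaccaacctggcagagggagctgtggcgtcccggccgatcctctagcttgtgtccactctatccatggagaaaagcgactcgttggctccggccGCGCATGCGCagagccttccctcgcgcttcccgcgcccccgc
Atp5g3: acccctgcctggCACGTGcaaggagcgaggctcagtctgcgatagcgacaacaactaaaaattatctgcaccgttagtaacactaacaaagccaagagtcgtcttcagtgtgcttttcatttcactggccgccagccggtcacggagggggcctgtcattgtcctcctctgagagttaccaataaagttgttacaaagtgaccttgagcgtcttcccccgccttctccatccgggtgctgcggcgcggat

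The Ndufaf4 window held the NRF1 letters, on both strands with overlap, 113 to 104 bases before the start, and the Atp5g2 window 42 to 33 bases before it. Atp5g1 held the E-box letters 44 to 39 bases before the start and Atp5g3 238 to 233 bases before it, while the Ndufv3 window held none of the 4 motifs. Promoters were given for 74 of the 90 genes (79 windows). Of these windows 17.7% held the NRF1 letters, against 5.16% of all 32851 promoter windows of the same length. The ETS letters were in 17.7% against 6.91%, the YY1 letters in 1.27% against 0.606%, and the E-box in 8.86% against 6.02%. Counted by gene, 14 of the 16 genes called higher with time in both treatments had a window. They held the NRF1 letters in 0, the ETS letters in 1, the YY1 letters in 0 and the E-box in 1 (Ndufa7). Of the 52 genes called in neither, 41 had a window and held them in 8, 9, 1 and 1. Of the genes called lower in either treatment, 4 had a window and held them in 1, 0, 0 and 2. Over all 27025 genes with a promoter window, the shares were 5.86%, 7.83%, 0.710% and 6.86%. The E-box and NRF1 letters do not overlap in any window shown. These are matches of letters and no measure of binding.

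The time comparisons in 1,25D and in vehicle share no arrays, and many genes were called in both. Of the 90 genes, 19 (21.1%) were called in both, 16 higher and 3 lower, and 0 in opposite directions; of all named genes, 14.97% were called in both. The 19 are 63.3% of the 30 genes called in 1,25D and 70.4% of the 27 called in vehicle, while over all named genes these shares were 63.8% and 80.5%. The genes lower in both were Ndufaf4, Ndufaf6 and Atp5g1. The sign was the same for 74 of 90 genes (82.2%), against 70.6% of all named genes, and Pearson's r of the changes over the 90 genes was 0.91 (Spearman's rho 0.82), against 0.83 over all named genes. These are correlations across genes, which are not independent replicates and are all read from the same 13 arrays.

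A further 11 genes were called with time in 1,25D alone and 8 in vehicle alone. The difference between the 2 time changes was itself tested. For these 19 genes the adjusted p of that difference lay between 0.819 (Ndufc2) and 0.985. Over all 90 genes, 0 passed in limma, against 0.632% of all named genes, with 4 at an unadjusted p under 0.05, against 7.23%, and the lowest adjusted p was 0.669, for Cox7a2l (0.28 ± 0.10 more rise in 1,25D).

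**Figure D4:**
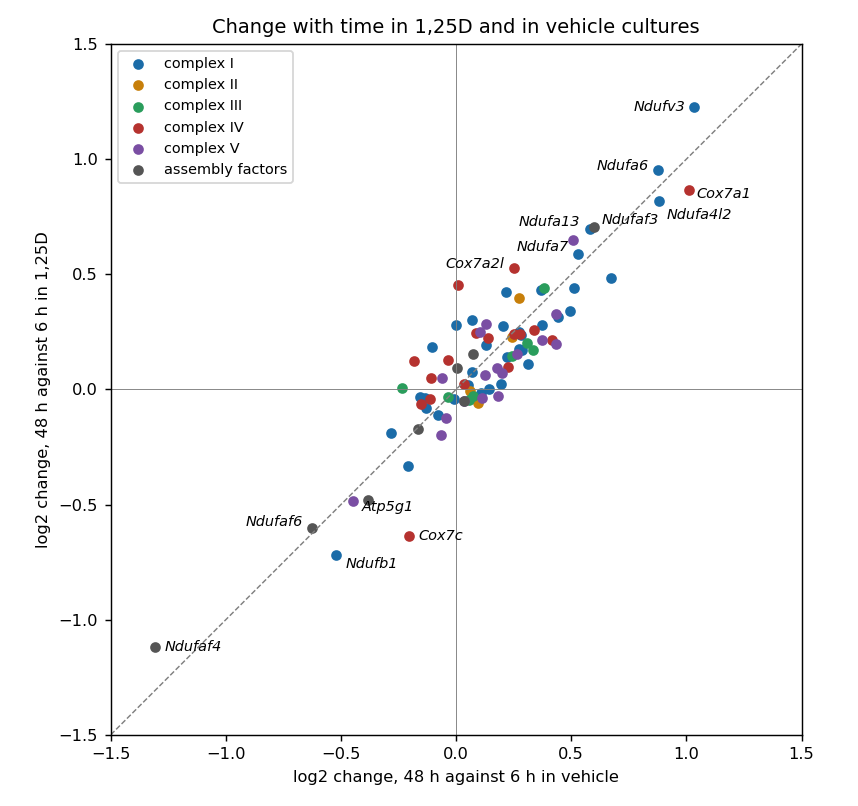
Log2 change from time in 1,25D (vertical axis) against that in vehicle (horizontal axis) for the 90 genes, coloured by complex; the dashed line marks equal change. Most points lie near the line (Pearson's r 0.91), with Ndufv3 at the upper end and Ndufaf4 at the lower end, and Cox7a2l above it.

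The hormone itself moved 0 of the 90 genes past the test at either time. At 48 h, limma called 0, against 2.39% of all named genes, with 4 at an unadjusted p under 0.05, against 10.3%. At 6 h it called 0, against 0.852%, with 3 at an unadjusted p under 0.05, against 7.01%. In 3 genes at 48 h and 4 at 6 h every 1,25D array lay above every vehicle array, against 5.47% and 5.68% of all named genes, and in 2 and 1 every one lay below, against 7.11% and 4.51%. The median difference of the 90 genes was 0.03 at each time. For comparison, Cyp24a1, the vitamin D 24-hydroxylase and a direct target of the vitamin D receptor, read 12.18, 12.56, 12.39 and 12.43 in the 1,25D cultures and 4.65, 4.92 and 4.10 in the vehicle cultures at 48 h, and 13.05, 13.21 and 12.81 in the 1,25D cultures and 4.78, 4.41 and 4.40 in the vehicle cultures at 6 h. A missed threshold does not show equal levels, so 95% intervals were read. They lay within a 1.5-fold change in either direction for 86 of 90 genes at 48 h and 84 of 90 at 6 h. The wider ones at 48 h were those of Cox7c, Cox8b, Ndufa4 and Ndufa4l2, and at 6 h those of Cox6a2, Cox6b2, Cox7c, Cox8b, Ndufa4 and Ndufa4l2.

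The smallest p at 48 h belonged to Cox7a2l, at 0.23 ± 0.07 higher in 1,25D (adjusted p 0.203), with a 95% interval of 0.08 to 0.38. Its arrays did not overlap. Ndufb4 measured 0.28 ± 0.09 higher (adjusted p 0.267), from a dim probe set. Ndufv3, the gene with the largest rise in time, measured 0.16 ± 0.07 higher (adjusted p 0.636), also without overlap of the arrays. At 6 h the smallest p belonged to Atp5mpl, a small membrane subunit of complex V, at 0.19 ± 0.07 higher in 1,25D (adjusted p 0.648). Atp5h measured 0.25 ± 0.10 higher (adjusted p 0.688). Without vehicle 6 h replicate 1, one of the arrays that stood apart, Atp5h measured 0.39 and passed (adjusted p 0.0338). With all 13 arrays, the gene's other probe set, of similar brightness (mean 12.35 against 12.43), measured 0.02 at 6 h (adjusted p 0.984 by limma). Atp5h is named because of the call without that array, after its value was seen.

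Other genes of respiration were read from lists by function. Their counts stand beside the background given above: 10.9% of all named genes higher and 12.5% lower with time in 1,25D, and 9.84% and 8.75% in vehicle. Of the mitochondrially encoded subunits, ND5 of complex I was the 1 measured of 26 names, and it changed by 0.07 ± 0.17 with time in 1,25D and 0.05 ± 0.18 in vehicle, with 0 calls. Of 18 electron carriers and related genes, 6 (33.3%) were higher and 5 (27.8%) lower with time in each treatment. Etfdh, Etfb and Etfa, which pass electrons from fatty acid oxidation to ubiquinone, were higher in vehicle by 0.81 ± 0.10 (0.36 as the mean of its probe sets), 0.65 ± 0.10 and 0.58 ± 0.11. Cyc1, the haem-carrying cytochrome c1 of complex III that the symbol rule leaves out, fell by 0.29 ± 0.06 in 1,25D and 0.40 ± 0.07 in vehicle. Against vehicle at 48 h, 2 of these 18 genes were higher in 1,25D: Sqor, which oxidises sulphide (0.62 ± 0.11, adjusted p 0.00821), and Gpd2, the mitochondrial glycerol 3-phosphate dehydrogenase (0.50 ± 0.10, adjusted p 0.0276). The Sqor call was lost without vehicle 48 h replicate 1 and as the mean of its probe sets (0.34), and the Gpd2 call without any vehicle 48 h array or 1,25D 48 h replicate 2 or 3.

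A separate list of assembly factors, without the Ndufaf genes above, had 39 measured genes. Of these, 8 (20.5%) were higher and 10 (25.6%) lower with time in 1,25D, and 10 (25.6%) higher and 5 (12.8%) lower in vehicle. Nubpl, which delivers iron-sulphur clusters to complex I, rose by 1.01 ± 0.10 in 1,25D and 1.07 ± 0.11 in vehicle. Higd2a and Higd1a, small factors of complex IV and its supercomplexes, rose by 0.86 ± 0.07 and 0.58 ± 0.08 in 1,25D and by 0.76 ± 0.07 and 0.76 ± 0.08 in vehicle. Cox10, which makes haem a for complex IV, fell by 0.91 ± 0.13 in vehicle (adjusted p 0.000252). As means of their probe sets, Higd1a measured 0.30 in 1,25D and Cox10 -0.58 in vehicle.

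Of 22 genes of the tricarboxylic acid cycle and pyruvate dehydrogenase, 2 (9.09%) were higher and 3 (13.6%) lower with time in 1,25D, and 3 (13.6%) higher and 1 (4.55%) lower in vehicle, shares near the background. Pdk1, a kinase that inactivates pyruvate dehydrogenase and is induced in hypoxia, had the largest change, 2.22 ± 0.18 higher in 1,25D (adjusted p 1.46e-06) and 2.30 ± 0.19 higher in vehicle (adjusted p 3.32e-06). Of 21 regulators of mitochondrial transcription and biogenesis, 2 (9.52%) were higher and 5 (23.8%) lower in 1,25D and 1 (4.76%) higher and 1 (4.76%) lower in vehicle. Tfb1m, a methyltransferase of the mitochondrial ribosomal RNA, rose by 0.84 ± 0.13 in 1,25D and 0.79 ± 0.14 in vehicle, while Pprc1, a serum-induced coactivator of the PGC-1 family, fell by 0.78 ± 0.15 and 0.89 ± 0.16. Ppargc1a, which encodes PGC-1alpha, was 2.41 ± 0.45 higher in 1,25D (adjusted p 0.00178) and measured 1.45 ± 0.48 in vehicle (adjusted p 0.0721). Of 10 carriers, uncouplers and the ATP synthase inhibitor, 1 was higher and 3 lower in 1,25D and 1 higher and 2 lower in vehicle. The inhibitor Atpif1 rose by 0.45 ± 0.08 in 1,25D and 0.64 ± 0.08 in vehicle (0.01 and 0.14, neither called, as the mean of its probe sets), and the adenine nucleotide carrier Slc25a5 fell by 0.45 ± 0.05 and 0.22 ± 0.05. Apart from Sqor and Gpd2, 0 of the 111 list entries were called between 1,25D and vehicle at 48 h or at 6 h in limma (13 at 48 h, those 2 included, and 8 at 6 h had an unadjusted p under 0.05; these are 11.7% and 7.21%, beside 10.3% and 7.01% of all named genes).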

How the data were processed

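Messenger RNA was measured in 13 cultures, grouped by sample titles. Signals were used as deposited: log2 values between 3.05 and 14.45. Per the submitters' processing notes the tool was MAS5, with no version or role given; background correction, normalization and detection calls are not given in the sources used here. The table holds 45101 probe sets, while the design text names a smaller chip; genes were named through that table's own platform annotation. After 64 control sets were removed, 45037 were tested, of which 34945 had 1 gene symbol, 932 several and 9160 none. All 90 entrez identifiers matched the RefSeq gene table of GRCm38.p6 under the same symbol.

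A model of the 4 group means, all 13 arrays together, was run with limma 3.58.1 in R 4.3.3 (eBayes with an intensity trend, two-sided), with Benjamini-Hochberg adjustment over all probe sets; the step was tested on simulated data. Changes are log2 differences with SEs. The small number of arrays limits the precision. Motif counts and figures used Python 3.11.15, scipy 1.17.1 and matplotlib 3.10.9. Promoter sequences are RefSeq's. The promoter window and the NRF1 letters were settled after the data were seen.

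The members and the gene lists were chosen with earlier results of these data known. Genes were named by rule: at most 10 called members a direction and comparison, the smallest p per complex, isoform sets, and up to 4 genes a list. Ndufa1, Ndufv1 and Ndufs8 and Atp5e in 1,25D, Atp5h and Atp5o in vehicle, Ndufv3 at 48 h and other uncalled values given for contrast were added after values were seen. Alternatives were normalization, centring, trend, dim probe sets, array weights, probe set choice, samples fitted, single cultures left out and a replicate block. Replicate numbers are shared by groups, but same-numbered arrays did not deviate together (correlations from -0.543 to 0.482), so arrays were not paired.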

Additional observations from a re-analysis of the deposited data

Results flagged for a closer look

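In the group of 4 arrays of 1,25D at 48 h, 40 values were tested for 1 array far from the others, and 4 were found; chance gives about 1 in 20. Cox7a1 read 5.81 in replicate 4, against 5.57 to 5.60 in the other 3, a gap of 0.886 of the group's range. Ndufaf6 read 7.61 in replicate 4, against 8.13 to 8.19, a gap of 0.898 of the range. Sdhc read 10.90 in replicate 2, against 11.20 to 11.26, a gap of 0.834 of the range. Atp5e read 11.56 in replicate 1, against 11.68 in the other 3, a gap of 0.963 of a narrow range. Replicate 4 is one of the arrays that stood apart by its interquartile range. The part of that in these values was not tested.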

How the results depend on the processing

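With time in 1,25D, 30 genes were called, and 18 to 35 with single cultures left out. With time in vehicle, 27 were called, 14 to 30 with single cultures left out, and 15 (12 higher, 3 lower) when only the groups compared were fitted. The shares of all named genes called in these alternatives are not given here. Between 1,25D and vehicle at 6 h, 0 were called, 0 to 1 with single cultures left out and 1 without both arrays that stand apart (Atp5h). At 48 h and for the difference between the time changes, 0 were called in all 24 alternatives. Fitted with the replicate number as a block, which uses up 1,25D 48 h replicate 4, 21 were called with time in 1,25D and 22 in vehicle; the numbers do not pair the samples. Of 105 gene results in 24 alternatives, 2303 of 2514 values kept direction and side of the threshold, 207 fell below it, 2 rose past it and 2 turned sign. Both of these were uncalled differences at 6 h without vehicle 6 h replicate 3: Ndufaf7, at -0.0078, and Sdhd, at -0.037, with highest values of 0.27 and 0.21 when other single cultures were left out. The cause was not tested. The median change of the 90 genes lay between 0.09 and 0.19 in 1,25D and between 0.12 and 0.17 in vehicle. Scaling moved the median of all genes by at most 0.023. Dim probe sets, such as those of Cox7a1 and Ndufb4, give uncertain folds.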
